A study of Mus musculus with 6 samples.

Results

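Serum-only SMAD1/5 sites are places where chromatin immunoprecipitation with sequencing found a SMAD1/5 peak in mouse embryonic stem cells (ESCs) kept in serum, with no counterpart in the same line kept in defined BMP-4 medium. They were chosen by merging all overlapping or touching peaks of the 2 ESC peak lists and keeping the merged regions that held LIF+serum peaks only. This left 3870 of 18386 ESC regions (21.1%), against 5503 regions with a peak in both media and 9013 with a LIF+BMP-4 peak only. Over all 4 peak lists of the series there were 18623 merged regions. Each serum-only region held exactly 1 peak, so regions and peaks are counted alike for this class. The members made up 41.2% of the 9387 LIF+serum peaks and covered 3.01 Mb.

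The cells were E14, a mouse ESC line grown on gelatin, in the naive pluripotent state. In the serum condition they grew with fetal bovine serum and leukaemia inhibitory factor (LIF), and no BMP-4 addition is named. In the BMP-4 condition they received LIF and 10 ng/ml BMP-4 in a serum-free basal medium. The labels name ESGRO Complete Basal Medium and N2B27 without saying which was used for the immunoprecipitation. Epiblast stem cells derived from ESCs (ESD-EpiSCs, the primed state) were maintained with FGF2 and activin A. They received BMP-4 (10 ng/ml), in 1 library for 1.5 h and in another for 24 h. All immunoprecipitations used the same anti-Smad1 antibody clone. Each condition was 1 unreplicated library. Differences below therefore cannot be set against replicate spread, and no test was run on them. The 2 ESC media differ in serum, BMP-4 and basal medium together, and these cannot be told apart from one another or from the library. The lists hold peaks and no reads, so depth is unknown, and a place missing from the LIF+BMP-4 list is not a place without binding.

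SMAD1 and SMAD5 carry the bone morphogenetic protein (BMP) signal. A ligand joins type I and type II receptors at the cell surface, the type I receptor phosphorylates SMAD1 and SMAD5, and these enter the nucleus with SMAD4 and bind GC-rich elements and SMAD boxes near their targets. The Id genes, which encode inhibitors of differentiation factors, are the classic direct targets. In mouse ESCs, BMP-4 can stand in for serum when LIF is present, and serum itself carries BMP activity among many other factors. All positions below are in the mm9 build, counted from 1. No gene name or sequence is given beside them, because no mm9 annotation or genome was used here.

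Serum-only peaks scored low within their own list. The score is the authors' value per peak and ranks peaks within a list only. Among the 3870 members it ran from 50.01 to 435.3 with a median of 61.9 (quartiles 54.9 and 75.1). The LIF+serum peaks that met a LIF+BMP-4 peak had a median of 81.4 (62.8 and 116.2). In percentiles of the LIF+serum list, where 100 is the strongest peak, the median was 34.3 for members and 63.0 for shared peaks. These values describe the lists that chose the members and are no independent evidence of weak binding. The classes overlapped from 50.02 up to 435.3, and above that score all LIF+serum peaks were shared. All 6 LIF+serum peaks at the lowest score, 50.01, were serum-only, and they lay on 6 different chromosomes. In the lowest decile of scores (50.01 to 53) the serum-only share was 62.2%, so this small tie marks no trait of the members.

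The share of serum-only peaks was lowest among high scores and highest among low ones. In the highest decile of LIF+serum scores (143.7 and above), 43 of 939 peaks were serum-only (4.58%, exact binomial 95% interval 3.33 to 6.12). The next decile held 176 of 939 (18.7%, 16.3 to 21.4). At the middle of the list, in the fifth decile, the share was 43.3% (40.2 to 46.6). From the eighth decile down it stayed near 60%, with 59.7%, 59.6% and 62.2% in the lowest 3 deciles, whose intervals overlapped. These intervals cover counting error over the peaks of 1 library, and peaks are not replicates.

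**Figure D1:**
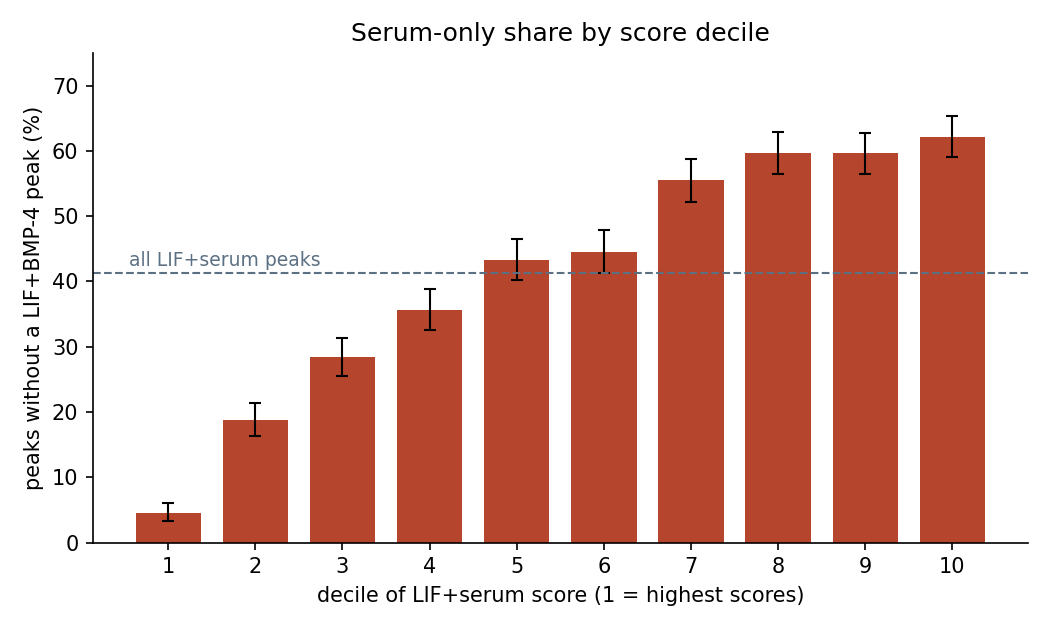
Share of LIF+serum peaks without a LIF+BMP-4 peak (y axis, percent) in each decile of LIF+serum score (x axis, 1 is highest). Bars are shares, whiskers exact binomial 95% intervals over peaks, and the dashed line is the share over the whole list. The share climbs from 4.58% in the highest decile to 62.2% in the lowest.

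At the very top of the serum list the members were few. Of the 10 highest-ranked LIF+serum peaks, 0 were serum-only (exact 95% interval 0 to 30.9%). There was 1 member among the top 50, 2 among the top 100 and 8 among the top 500. Among the 2165 LIF+serum peaks scoring at least 100, 302 were serum-only (14.0%). Of all members, 7.80% reached that score, against 33.8% of the shared peaks. Scores of 200 or more were found in 6 members and 398 shared peaks.

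The 10 highest-scoring members show what the strongest serum-only calls look like. The first lay on chromosome 12 at 79948637 to 79949640, with a score of 435.3 and rank 48 of the LIF+serum list. Its nearest LIF+BMP-4 peak was 663.7 kb away and scored only 62.2 there, and its nearest region of both media was 958.9 kb away. Among the 3 strongest members it was the only one far from any peak of the other medium. The next lay on chromosome 18 at 65781878 to 65782829, with a score of 413.9 and rank 55. That member stood only 128 bp from a LIF+serum peak of lower score (162.5, rank 700) that did meet a LIF+BMP-4 peak, and 1478 bp from the LIF+BMP-4 peak itself. The site on chromosome 7 at 19803624 to 19804276 (score 296.5, rank 134) was 6727 bp from a LIF+BMP-4 peak. Of these 3 strongest members, 2 therefore sat beside a site of both media.

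The remaining 7 had scores between 180.5 and 235.2 and mixed surroundings. The member on chromosome 15 at 38001497 to 38002802 (score 235.2, rank 257) was 1991 bp from a LIF+BMP-4 peak with no LIF+serum counterpart. On chromosome 12 at 41779233 to 41779999 (score 206.2, rank 364), the gap to a LIF+BMP-4 peak was 624 bp. There the adjoining LIF+serum peak that met it, 468 bp from the member, scored 51.3 and ranked 8995. In that pair the stronger serum peak was the one without a counterpart. The member on chromosome 2 at 168650971 to 168651513 (score 200.1, rank 404) lay 46.3 kb from a LIF+BMP-4 peak. Another on chromosome 7, at 31491155 to 31491629 (score 188.1, rank 481), lay 97.9 kb away. The gaps were 267.2 kb for the member on chromosome 5 at 128713349 to 128714019 (score 185.3, rank 498) and 106.2 kb for that on chromosome 15 at 27705732 to 27706383 (score 184.6, rank 501). The last, on chromosome 6 at 30250336 to 30251279 (score 180.5, rank 532), stood 19.6 kb from one. Over the 10, gaps ranged from 0.624 to 663.7 kb with a median of 32.9 kb, 4 were within 10 kb, and 0 met an ESD-EpiSC peak.

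**Figure D2:**
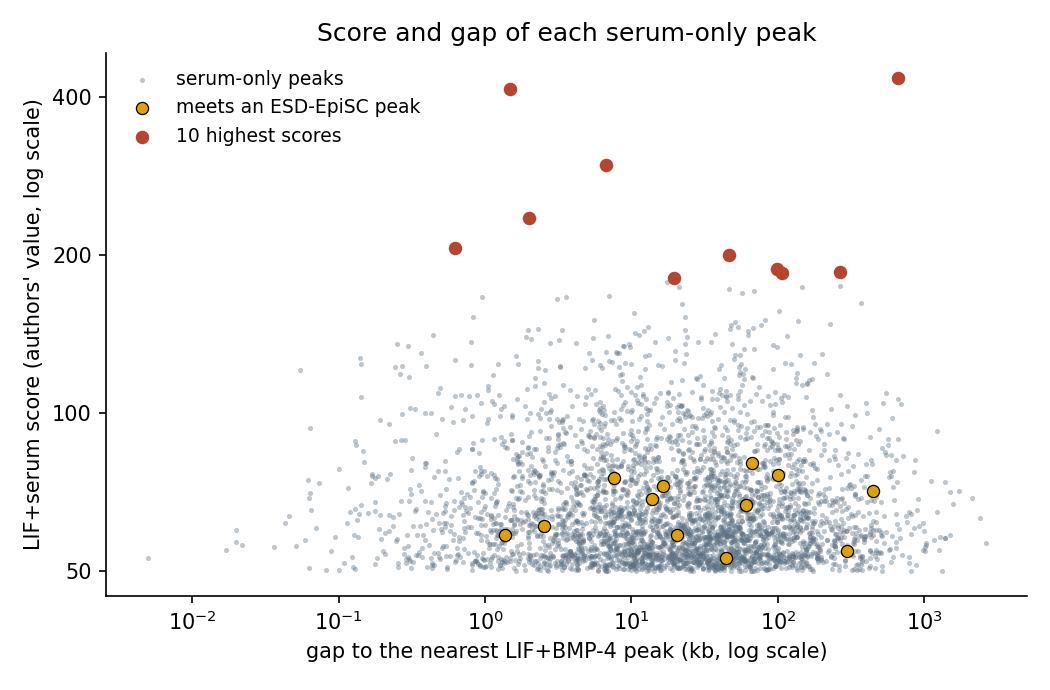
Each serum-only peak with a LIF+BMP-4 peak on its chromosome, by its gap to the nearest one (x axis, kb, log scale) and its LIF+serum score (y axis, the authors' value, log scale). Red points are the 10 highest scores and yellow points are members that meet an ESD-EpiSC peak; the red points span 0.624 to 663.7 kb and the yellow ones lie between 52.9 and 80.2 in score.

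Serum-only peaks were narrower than shared ones. Their widths ran from 270 to 7854 bp with a median of 735 bp (quartiles 618 and 884), against a median of 868 bp (720 and 1034) for LIF+serum peaks of regions with both media. In this list width went with score, so the classes were also set side by side within quintiles of score. In the lowest quintile the median width was 651 bp for members (95% interval of the median 638 to 664, 1145 peaks) and 724 bp for shared peaks (704 to 745, 733 peaks). In the highest it was 929 bp (895 to 973, 219 peaks) and 1022 bp (1008 to 1036, 1659 peaks). Members had the lower median in each of the 5 quintiles. In the fourth, however, the intervals overlapped (848 to 885 and 877 to 906 bp). A wider peak also has more room to meet a peak of the other list, and the part of that in the difference was not tested.

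Few members were wide. Over 1000 bp there were 495 members (12.8%) and 1582 shared peaks (28.7%), and over 2000 bp there were 11 and 74. The widest member was the only LIF+serum peak on chromosome Y, at 2863012 to 2870865, with a width of 7854 bp, a score of 165.5 and rank 668. The LIF+BMP-4 list had no peak on that chromosome. The next widest lay on chromosome 18 at 3007116 to 3011038 (3923 bp, score 78.3) and on chromosome 12 at 20235081 to 20238389 (3309 bp, score 86.3). The narrowest was on chromosome 2 at 58419970 to 58420239, with 270 bp and a score of 90.6. It was followed by 337 bp on chromosome 18 at 8605972 to 8606308 and 344 bp on chromosome 4 at 106637413 to 106637756. These 3 ranked 2740, 4045 and 7673 in score.

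Most serum-only sites lay more than 10 kb from the nearest peak of the LIF+BMP-4 list. Places that fell below the score minimum of that list cannot be seen, so near misses in score were not tested. The median gap from a member to the nearest LIF+BMP-4 peak was 21.4 kb (95% interval of the median 19.8 to 23.1 kb, quartiles 5.81 and 65.3 kb, 3869 members). Within 200 bp there were 58 members (1.50%), within 1 kb 274 (7.08%, 6.29 to 7.93), within 10 kb 1359 (35.1%, 33.6 to 36.6) and within 100 kb 3188 (82.4%). Beyond 1000 kb there were 21. For comparison, shared LIF+serum peaks were measured to the nearest LIF+BMP-4 peak that did not meet them. That median was 15.1 kb (14.2 to 16.1), with 10.4% (9.56 to 11.2) within 1 kb and 41.5% (40.2 to 42.8) within 10 kb. The members' median was the larger of the 2. The rule chose the members by these same LIF+BMP-4 peaks and the classes were not matched in score, so this is description only. By score quintile from lowest to highest, the median gaps of members were 21.1, 24.9, 20.6, 18.8 and 14.9 kb. The interval was 22.0 to 28.3 kb in the quintile with the largest median and 10.5 to 22.2 kb in the highest quintile (218 members), so these overlapped narrowly. All gaps depend on the length of the LIF+BMP-4 list, which held 14696 peaks against 9387 in LIF+serum. With that list reduced to its 9387 highest scores the median gap was 35.0 kb, and with scores of at least 100 in both lists it was 65.6 kb.

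**Figure D3:**
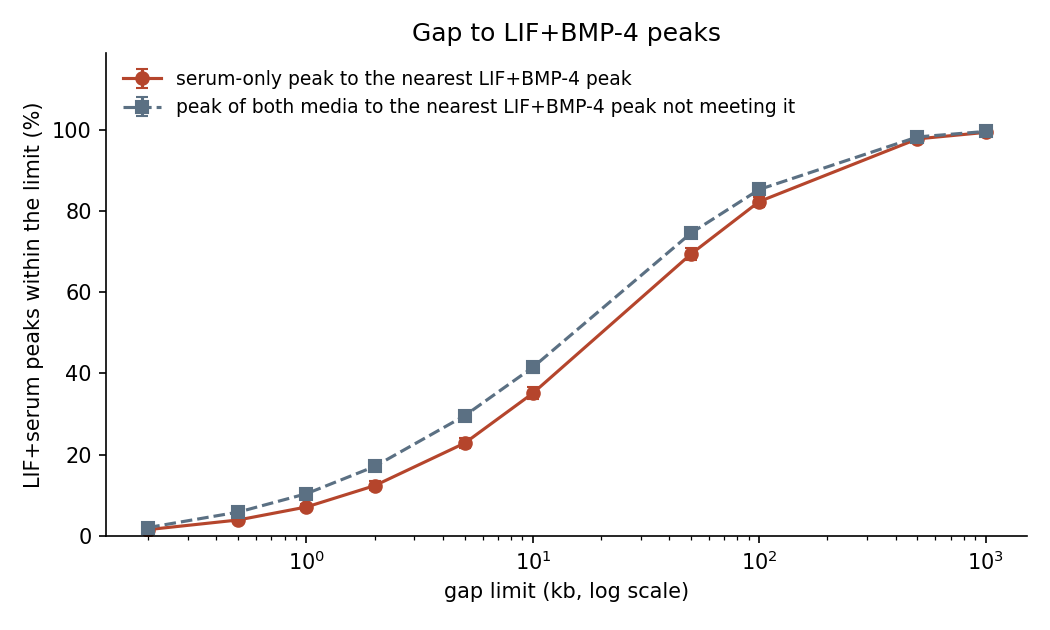
Share of LIF+serum peaks (y axis, percent) whose gap to a LIF+BMP-4 peak is within the limit on the x axis (kb, log scale). Red circles are serum-only peaks and grey squares are peaks of both media, measured to the nearest LIF+BMP-4 peak not meeting them; whiskers are exact binomial 95% intervals. Red lies below grey, with 35.1% against 41.5% within 10 kb.

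The members at the edge of the rule show how little separates a serum-only call from a shared one there. The closest member, on chromosome 15 at 98799863 to 98800685 (score 52.9), began 5 bp after a LIF+BMP-4 peak at 98799476 to 98799857 (score 54.9 in its own list). Next came members on chromosome 6 at 51435824 (gap 17 bp), on chromosome 1 at 7122431 and chromosome 19 at 10910608 (20 bp each) and on chromosome 4 at 118603202 (22 bp). All 5 scored between 52.9 and 59.8. Just outside the rule, the LIF+serum peak on chromosome 11 at 119636914 to 119637925 (score 54.2) shared 2 bp with a LIF+BMP-4 peak of score 119.1. The peaks on chromosome 13 at 98030718 and chromosome 9 at 78324936 shared 24 and 25 bp, and those on chromosome 7 at 3289144 and chromosome 5 at 105157762 shared 31 and 36 bp. The score minimum of the LIF+BMP-4 list forms another edge. Each of the 5517 shared LIF+serum peaks was paired with the LIF+BMP-4 peak it overlapped most in bp. That peak scored below 55 for 355 (6.43%, 5.80 to 7.12) and below 60 for 648 (11.7%, 10.9 to 12.6). Some of these may also meet a stronger LIF+BMP-4 peak. The minimum of the LIF+BMP-4 list is 50. Among its 14696 peaks a score of 54.9 ranked 12568 and 59.3 ranked 11064, so such scores are common there. The share of the whole list below 55 or 60 was not counted.

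The LIF+BMP-4 peaks nearest to the members had middling scores. For members within 1 kb of one, the nearest LIF+BMP-4 peak had a median percentile of 54.7 in its own list, and beyond 100 kb it was 48.1. That nearest peak belonged to a region of both media for 114 of 274 members within 1 kb (41.6%, 35.7 to 47.7) and for 246 of 681 members beyond 100 kb (36.1%, 32.5 to 39.9). Over the whole LIF+BMP-4 list the share of peaks in such regions was 38.7%, which both of these intervals held. Between 1 and 10 kb it was 468 of 1085 members (43.1%, 40.2 to 46.1), an interval above 38.7%, and between 10 and 100 kb 741 of 1829 (40.5%, 38.3 to 42.8).

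Some members adjoined a shared LIF+serum peak directly. There were 140 of 3870 (3.62%, 3.05 to 4.26) within 1 kb of a LIF+serum peak that met the LIF+BMP-4 list. Their median score was 64.3 and that of the adjoining shared peaks 88.7, and the member was the stronger of the pair in 37 of 140. Counted over all members, 112 (2.89%) had a further serum-only peak within 1 kb, and these may include some of the 140. These adjoining calls are counted as separate regions by the rule.

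Most members had no other ESC region within 10 kb. Within 10 kb, 712 members (18.4%, 17.2 to 19.7) had a region of both media, 883 (22.8%, 21.5 to 24.2) a LIF+BMP-4-only region and 470 (12.1%, 11.1 to 13.2) another member. No other ESC region lay within 10 kb of 2269 members (58.6%, 57.1 to 60.2). That share was 58.3% (57.3 to 59.3) for LIF+BMP-4-only regions and 51.9% (50.5 to 53.2) for regions of both media. Another region of both media lay within 10 kb of 22.8% (21.7 to 23.9) of the shared regions. The members' 18.4% lay below that interval, while the share of LIF+BMP-4-only regions (18.1%, 17.4 to 19.0) had an interval overlapping that of the members. The nearest ESC region of any kind was LIF+BMP-4-only for 46.5% of members, of both media for 30.8% and serum-only for 22.8%. In the whole set of ESC regions these classes made up 49.0%, 29.9% and 21.1%. With scores of at least 100 in both lists, 7.29% of serum-only regions had a region of both media within 10 kb and 3.10% another serum-only region, and with ESC peaks extended by 1 kb the latter share was 6.24%.

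Few serum-only sites lay in runs of members. Runs were not counted for the other classes, so these numbers have no background beside them and mark no trait of the members. Joined by gaps of at most 10 kb, 3400 members stood alone, 402 formed pairs and 45 formed groups of 3. Only 5 runs held 4 or more. The longest, of 6 members, lay on chromosome 9 at 3015102 to 3038581, a stretch of 23.5 kb close to the first ESC peak of that chromosome, which began at 2999840. Its members were wide, with a median of 1606 bp against 735 bp for all members, and scored 55.2 to 97.2. A run of 5 lay on chromosome 12 at 42817618 to 42833744 together with 2 regions of both media. Runs of 4 lay on chromosome 14 (100670272 to 100680141), on chromosome 16 (8549514 to 8569663) and on chromosome 8 (44381026 to 44392726), and none of these 3 held a region of both media. That on chromosome 14 had neither kind of LIF+BMP-4 region, and its scores were 67.9 to 101.5. In windows of 100 kb the largest number of members was 6. It was reached in 7 windows on chromosomes 6, 7, 9, 10, 17 and 18, of which the 2 on chromosome 10 overlapped. The window on chromosome 7 at 119924103 to 120011891 held 6 members, 0 regions of both media and 1 LIF+BMP-4-only region, whereas that on chromosome 6 at 37821424 to 37916017 held 6 members beside 6 regions of both media.

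The 5 most isolated members scored between 56.5 and 71.1, against a median of 61.9 for all members. The greatest gap to a LIF+BMP-4 peak was 2624.1 kb, on chromosome X at 23111761 to 23112186 (score 56.5, rank 7425). It was followed by 2391.5 kb on chromosome X at 85828512 to 85829308 (score 63.1), 2121.9 kb on chromosome 16 at 53664584 to 53665293 (score 69), 1727.2 kb on chromosome 6 at 104414915 to 104415347 (score 71.1) and 1579.0 kb on chromosome 6 at 78194305 to 78195052 (score 67.2). The best rank among these 5 in the LIF+serum list was 4609, and the median rank of all members was 6165. Their scores therefore do not set them apart from other members. The 6 members tied at 50.01 included those on chromosomes 12 at 67277487, 10 at 24648063 and 11 at 69967807. These stood 806.3, 55.6 and 67.0 kb from a LIF+BMP-4 peak, and the gaps of the others in the tie are not given. In the lowest score quintile the members' median gap was 21.1 kb (18.9 to 24.1), against 14.9 kb (10.5 to 22.2) in the highest. These intervals overlapped, and the largest median was in the second quintile from the lowest.

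The serum-only share varied moderately between chromosomes. On the 19 autosomes it ranged from 34.3% of the LIF+serum peaks on chromosome 8 (225 of 657, 30.6 to 38.0) to 50.2% on chromosome 18 (144 of 287, 44.2 to 56.1). For 16 of the 19 the exact interval held the overall 41.2%. The exceptions were chromosomes 8 and 18 and, narrowly, chromosome 6 (45.8%, 41.6 to 50.1). Chromosome X had few peaks, with 38 of 70 serum-only (54.3%, 41.9 to 66.3). The LIF+BMP-4 list also differs between chromosomes in peak number, and the part of that in these shares was not tested.

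**Figure D4:**
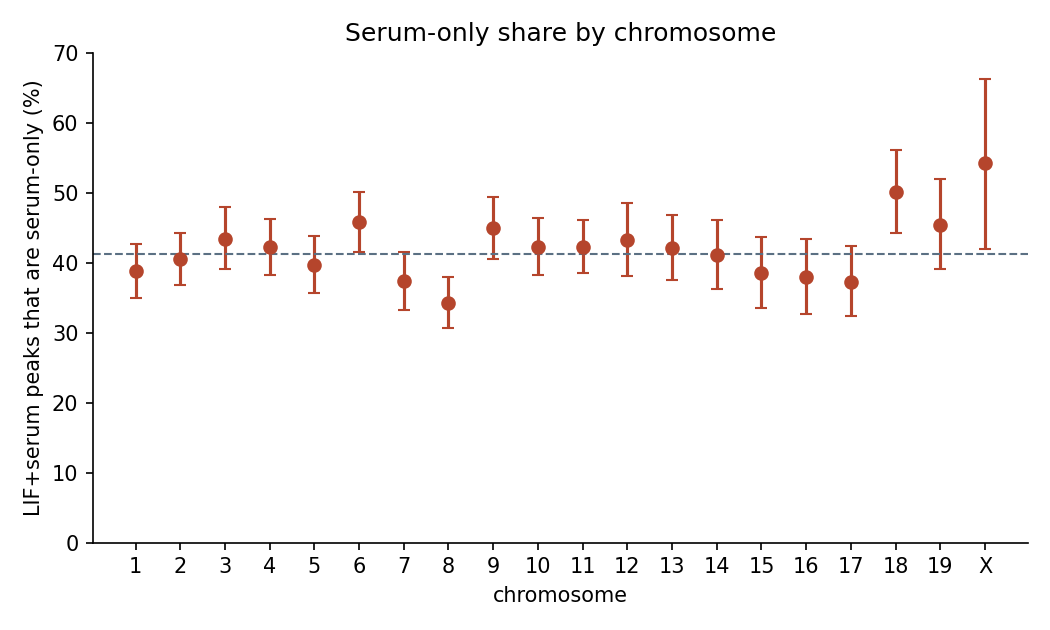
Share of LIF+serum peaks that are serum-only (y axis, percent) on each autosome and chromosome X (x axis). Points are shares with exact binomial 95% intervals over peaks, and the dashed line is the overall share of 41.2%; chromosome 8 lies lowest at 34.3%, and chromosome X, with 70 peaks, has the widest interval.

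The ESD-EpiSC lists took no part in choosing the members, and few members met a peak there. At 1.5 h of BMP-4, 10 of 3870 members overlapped an ESD-EpiSC peak (0.258%, exact 95% interval 0.124 to 0.475), against a background of 0.575% over all LIF+serum peaks. At 24 h there were 5 (0.129%, 0.0420 to 0.301), against 0.256%. With either time counted there were 13 (0.336%, 0.179 to 0.574), against 0.735% over the whole list. Shared LIF+serum peaks met an ESD-EpiSC peak of either time in 56 of 5517 cases (1.02%, 0.768 to 1.32), an interval above that of the members. For LIF+BMP-4-only regions it was 21 of 9013 (0.233%, 0.144 to 0.356), an interval that overlapped that of the members. Median widths were 735 bp for members and 500 bp for all LIF+BMP-4 peaks, and the part of width in this comparison was not tested. The ESD-EpiSC lists held only 225 and 133 peaks, so all of these shares are small.

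Score moved with this difference. Shared peaks met ESD-EpiSC peaks chiefly in the highest score quintile, with 38 of 1659 (2.29%, 1.63 to 3.13), whereas only 219 members scored that high and 1 of them did (0.457%, 0.0116 to 2.52). In the other 4 quintiles the counts were 12 of 3651 members and 18 of 3858 shared peaks. Weighted to the score quintiles of the members, the share of shared peaks was 0.498%, which lies within the members' interval. Weighted to the members' width tertiles it was 0.719%, above that interval. Members had the lower share in every score quintile except the third (0.727% against 0.285%). The highest quintile spans scores from 106.9 to 1331.5, and 150 or more was reached by 30 members and 818 shared peaks. Quintiles therefore do not make the scores equal, and the part of score in the difference was not tested.

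**Figure D5:**
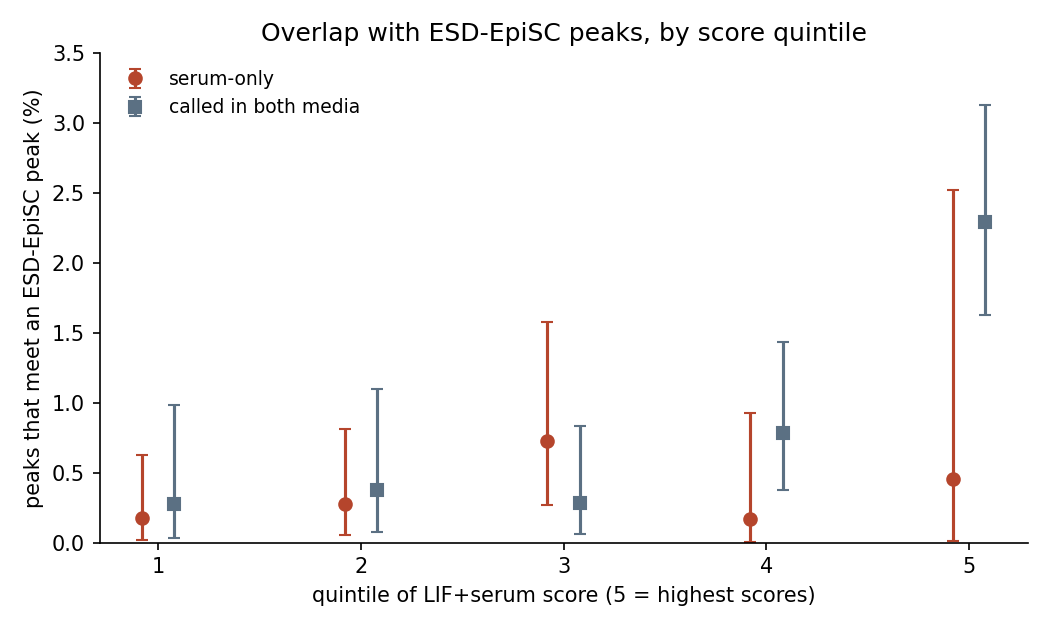
Share of LIF+serum peaks that meet an ESD-EpiSC peak of either time (y axis, percent) by quintile of LIF+serum score (x axis, 5 is highest). Red circles are serum-only peaks and grey squares are peaks of both media, with exact binomial 95% intervals; the 2 intervals overlap in every quintile, including the highest with 0.457% and 2.29%.

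The 13 members with an ESD-EpiSC peak were spread over the serum list, from percentile 9.5 to 92.9. So few members give only an uncertain median. Their scores ran from 52.9 to 165.5 with a median percentile of 47.1, against 34.3 for all members, and 1 of them, the wide chromosome Y site, scored at least 100. They met 17 ESD-EpiSC peaks, of which 16 lay wholly inside the member, and the midpoints of the pairs were a median of 119.5 bp apart. The median width was 123 bp in the 1.5 h list and 102 bp in the 24 h list, against 890 bp for these members. Overlap of such narrow peaks with such wide ones leaves little room for another layout, so it does not show a close match of position. In each of 2 members a peak was present at both times. The first lay on chromosome 13 at 15486795 to 15487556 (score 72.6, rank 4408) and met a 1.5 h peak of score 109.3 (rank 36 of 225) and a 24 h peak of score 56.1 (rank 84 of 133). Its nearest LIF+BMP-4 peak was 16382 bp away. The other lay on chromosome 2 at 152560589 to 152561478 (score 60.8, rank 6344), 2533 bp from a LIF+BMP-4 peak. It met a 1.5 h peak at 152560787 to 152561054 (score 147.5, rank 23) and a 24 h peak at 152560993 to 152561104 (score 59.5, rank 66). That weak serum call thus coincided with one of the stronger early peaks in ESD-EpiSCs.

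Among the other 11, 8 were met at 1.5 h and 3 at 24 h. The early ones included chromosome 4 at 145290968 to 145291635 (score 80.2; 1.5 h score 90.8, rank 51) and at 146135161 to 146135987 (score 76.1; 59.5, rank 124), both over 60 kb from a LIF+BMP-4 peak. Another on chromosome 4, at 135700155 to 135701225 (score 58.6), met a 1.5 h peak of rank 218 and stood 1331 bp from a region of both media. The others at 1.5 h lay on chromosome 11 at 107001822 (score 75.3), chromosome 2 at 166141641 (68.7), chromosome 3 at 90034868 (66.8) and chromosome 10 at 24314860 (58.7, met by 2 peaks) and 24748850 (52.9). At 24 h the members were chromosome 4 at 6895691 to 6896468 (score 71.2), which met 2 peaks of ranks 20 and 73 and stood 449.4 kb from any LIF+BMP-4 peak, chromosome 10 at 14982774 (54.7) and the chromosome Y site (24 h score 87.4, rank 16). These sites therefore ranged from close neighbours of shared binding to isolated ones.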

How the data were processed

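SMAD1/5 chromatin immunoprecipitation was read from 4 peak lists, 1 per immunoprecipitated library; the 2 input libraries were not analysed here. The groups come from the library titles. Per the submitters' processing notes, Bowtie 1.1.0, Picard and MACS 1.4.2 were used on mm9; not given in the sources used here were the control, the filters and the duplicate treatment. Each deposited list gives a score per peak, whose scale the labels do not name; MACS usually writes -10 times the log10 of a p-value. It was used only within a list. Depth is unknown.

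Peaks were merged when overlapping or touching. Gaps run from edge to edge. An ESD-EpiSC peak was met at 1 bp of overlap. Intervals are exact (Clopper-Pearson, or binomial order statistics for medians) at 95% and cover counting error only. No significance test was run, since each group has 1 library. Python 3.11.15, numpy 2.4.6, pandas 2.3.3, scipy 1.17.1 and matplotlib 3.10.9 were used. Overlaps and merged lengths were checked on simulated peaks. Gaps were checked there only for not exceeding the simulated gap.

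The members and settings were chosen with earlier results of these data known. Positions are named by rule: the 10 highest scores, the members met by ESD-EpiSC peaks, the 5 smallest gaps, the 5 smallest overlaps and the 5 largest gaps, the 3 widest, narrowest and lowest, and the densest 100 kb windows. The runs of members joined within 10 kb were named after their values were seen. Promoter shares, gene lists and motifs were not run, because the tables at hand belong to GRCm38.p6.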

Additional observations from a re-analysis of the deposited data

How the results depend on the processing

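No paired analysis was possible because no group holds more than 1 library, and leaving out a replicate was not possible for the same reason. The planned promoter and motif settings were not run without an mm9 annotation. Of 46 values under the planned settings, 26 stayed within the interval of the value reported (counts, within 1.5 times) and 20 moved past it. A score of at least 100 in both ESC lists gave 741 serum-only regions, of which 302 were serum-only as reported and 439 became so without their LIF+BMP-4 partner, with a median percentile of 31.3, a median width of 946 bp and a median gap of 65575.5 bp. Under it 7.29% had a region of both media and 3.10% another member within 10 kb, and 2.60% of shared peaks met an ESD-EpiSC peak. With the LIF+BMP-4 list reduced to the length of the LIF+serum list, the median percentile was 36.4, the width 747 bp, the gap 35019 bp, and the neighbour shares 16.0% (both media) and 15.3% (members). Extension of ESC peaks by 1 kb gave a width of 724 bp, a gap of 28993 bp, and neighbour shares of 13.2% and 6.24%. Within 50 kb in place of 10 kb, the neighbour shares were 46.3% and 36.4%. The share of shared peaks meeting an ESD-EpiSC peak became 0.498% weighted to the members' score quintiles and 0.719% weighted to their width tertiles. Fewer or wider ESC peaks move gaps and neighbour shares by construction. Requiring 50% overlap, or leaving out chromosome Y and peaks over 5 kb, moved none of the values, and the members' share with an ESD-EpiSC peak stayed in its interval under every setting run.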
